A study of Mus musculus with 9 samples.

Results

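The BCL2 family decides whether a cell keeps its mitochondrial outer membrane intact, and 10 of its genes were followed here through a time course of NRG1 in MyC-CaP cells. The 10 genes were every row of the count table named Bcl2, Bcl2l1, Mcl1, Bax, Bcl2l11, Bmf, Bbc3, Pmaip1, Bad or Bid, among 15552 protein-coding genes. All 10 were found once, and all 10 were among the 11373 genes that passed the filter on low counts. They comprise 3 pro-survival genes and 7 pro-death genes, the latter being 1 effector and 6 BH3-only genes.

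MyC-CaP is a mouse prostate cancer line that arose in a mouse with a prostate-driven MYC transgene, and it stands for 1 line of malignant cells without stroma. Every group, the 0 h group included, was MyC-CaP in serum-free, calcium-free medium. The 12 h and 24 h groups had been given NRG1, which binds HER3, as recombinant protein at 15 ng/mL for that long, and each of the 3 time points had 3 libraries. No library of cells starved for as long without NRG1 was analysed here, and starvation time therefore cannot be told apart from NRG1 exposure.

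Proteins of the BCL2 family meet at the outer mitochondrial membrane. BCL2, BCL-XL (from Bcl2l1) and MCL1 hold the effectors BAX and BAK in check, while BH3-only proteins such as BIM (Bcl2l11), PUMA (Bbc3) and NOXA (Pmaip1) bind the pro-survival proteins or activate the effectors, after which cytochrome c leaves the mitochondria and caspases are switched on. Growth factor signaling through AKT and ERK is known to act on several of these proteins after translation, which mRNA counts do not show.

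Each library held 28467089 to 39239760 counts, and a member had between 479 and 9530 counts in a library, so that for the lowest members counting error is part of the spread between libraries. Replicates correlated at r = 0.995 to 0.996 across genes. Mitochondrially encoded genes took 1.41% to 1.498% of the counts at 0 h, 1.12% to 1.18% at 12 h and 1.21% to 1.36% at 24 h, and the part of this difference in the results was not tested. The labels call the cells epithelial-like. The epithelial adhesion genes Epcam and Cdh1 had at most 3 and 4 counts in a library, with means over the libraries of 0.00997 and 0.0470 CPM (CPM, counts scaled to library size). The mean of Krt18, a keratin of simple epithelia, was 0.253 CPM at 0 h, 0.317 CPM at 12 h and 0.378 CPM at 24 h. Its partner keratin Krt8 rose from a mean of 18.2 CPM to 22.3 CPM at 12 h and 23.1 CPM at 24 h, by 0.30 (edgeR adjusted p = 0.0169) and 0.34 (adjusted p = 0.0107) on the log2 scale, and passed in 11 and 13 of 15 alternative fits. Of 10 markers of leukocytes, fibroblasts and endothelium, none was at 0 in every library, and their summed level was 17.3 to 18.4 CPM at 0 h, 16.1 to 18.9 CPM at 12 h and 16.9 to 18.6 CPM at 24 h, nearly all of it from Pdgfra. In bulk RNA, fewer cells of a type and less RNA per cell cannot be told apart.

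Sequence just upstream of 3 members is shown first, because Bcl2l11 and Bcl2 fell together at 12 h and Bcl2l1 rose at 24 h. Sequences are from RefSeq (GRCm38.p6), 250 bases ending at the base before the annotated start, on the strand of the gene and read 5′ to 3′. The stretch of Bcl2l11 lies at chr2:128125788-128126037 on the plus strand, that of Bcl2 at chr1:106714291-106714540 on the minus strand and that of Bcl2l1 at chr2:152831729-152831978 on the minus strand. Where several starts are listed, the one nearest to the 5′ end of the gene, as given with the counts, was used. Capitals mark matches, on either strand, to GGGCGG (a GC box) or TGTTTAC (a FOXO motif).
Bcl2l11: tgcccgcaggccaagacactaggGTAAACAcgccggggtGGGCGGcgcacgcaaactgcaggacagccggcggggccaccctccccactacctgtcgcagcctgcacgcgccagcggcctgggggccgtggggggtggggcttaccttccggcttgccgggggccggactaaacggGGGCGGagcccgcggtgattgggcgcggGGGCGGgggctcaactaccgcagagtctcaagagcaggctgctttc
Bcl2: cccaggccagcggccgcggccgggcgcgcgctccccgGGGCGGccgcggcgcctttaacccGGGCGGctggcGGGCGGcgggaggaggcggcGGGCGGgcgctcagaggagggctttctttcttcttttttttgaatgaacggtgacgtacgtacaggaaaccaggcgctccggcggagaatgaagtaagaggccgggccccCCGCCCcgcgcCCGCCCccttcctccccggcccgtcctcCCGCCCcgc
Bcl2l1: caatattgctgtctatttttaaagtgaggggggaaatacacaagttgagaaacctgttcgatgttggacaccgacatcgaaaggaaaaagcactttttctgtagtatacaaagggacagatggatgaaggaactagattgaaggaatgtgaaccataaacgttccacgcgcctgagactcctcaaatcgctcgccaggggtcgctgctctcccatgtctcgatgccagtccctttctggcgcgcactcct
Bcl2l11 held 1 match to the FOXO motif, 227 to 221 bases before its start on the opposite strand, and 3 GC boxes, while Bcl2 held 7 GC boxes and Bcl2l1 held no match to any motif searched. The FOXO motif was found in 3.17% of 32851 mouse promoters of the same length, and among the 9 members with a promoter sequence in Bcl2l11 alone. GC boxes were found in 32.7% of all promoters and in 7 of the 9 members, with Bmf and Bcl2l1 the exceptions. Of the other motifs searched on both strands, CACGTG (E-box) was in 6.02% of promoters and in Bax, and TTTCCCGC (E2F, 0.895%), TGATGNAA (ATF4, 3.45%) and TGACGTCA (CRE, 1.55%) were in none of the 9. No searched motif contains another. The Bcl2l11 and Bcl2 stretches were 72% and 74.8% G or C with 24 and 36 CpG, against a median of 52.4% and 6 CpG over all promoters, and Bcl2l1 had 47.6% and 12 CpG. Among members whose sequence is not shown, Bbc3 had 76.4% and 27 CpG, and Mcl1 64.4% and 26 CpG. Bid had 63.6% and 18 CpG, Bad 62.8% and 21, Bax 54% and 14, and Bmf 54% and 8. The 3 shown were picked by their changes, and a relation of G or C content to change was not tested.

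To place the 10 genes beside one another, CPM were divided by the exonic length of each gene in kb. Mcl1 had the highest level per length, with a mean over the 9 libraries of 64.5 CPM per kb, followed by Bcl2l1 at 49.98, Pmaip1 at 45.0 and Bax at 29.2 CPM per kb. Bbc3 (14.4), Bad (8.79), Bmf (7.20), Bcl2l11 (5.49) and Bid (5.23 CPM per kb) were lower, and Bcl2, the gene that gave the family its name, was the lowest at 1.91 CPM per kb. The ranges over the 9 libraries overlapped between Bcl2l1 and Pmaip1, between Bad and Bmf and between Bcl2l11 and Bid, and did not overlap between the other neighbors in this order. Exonic length is the union of all annotated exons, so a gene with long exons that the cells do not use would be placed lower than its transcripts. Bcl2 has 9.16 kb of exons, and which exons these cells use was not examined.

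Between time points the members moved little. At 12 h, 1 of 10 members rose (Pmaip1) and 2 fell (Bcl2 and Bcl2l11), and at 24 h 2 rose (Bcl2l1 and Pmaip1) and none fell, where passing means an adjusted p of at most 0.05 by edgeR's quasi-likelihood F-test with Benjamini-Hochberg adjustment over all 11373 genes. Over all genes tested, 25.5% passed at 12 h (13.6% higher and 11.9% lower) and 17.4% at 24 h (9.67% higher and 7.76% lower), so that 3 of 10 and 2 of 10 members were close to the background. No member reached a 1.5-fold change, whereas 2.29% of all genes passed and reached it at 12 h and 2.27% at 24 h. With the 3 time points tested at once, 5 of 10 members passed (Bcl2, Bcl2l1, Bax, Bcl2l11 and Pmaip1) against 27.4% of all genes. The median log2 fold change of the members was -0.042 at 12 h and -0.03 at 24 h, against -0.0028 and -0.0065 over all genes. Both comparisons share the 3 libraries of 0 h. Since the labels number wells plated in triplicate as biological replicates, p-values measure the spread between these wells.

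**Figure D1:**
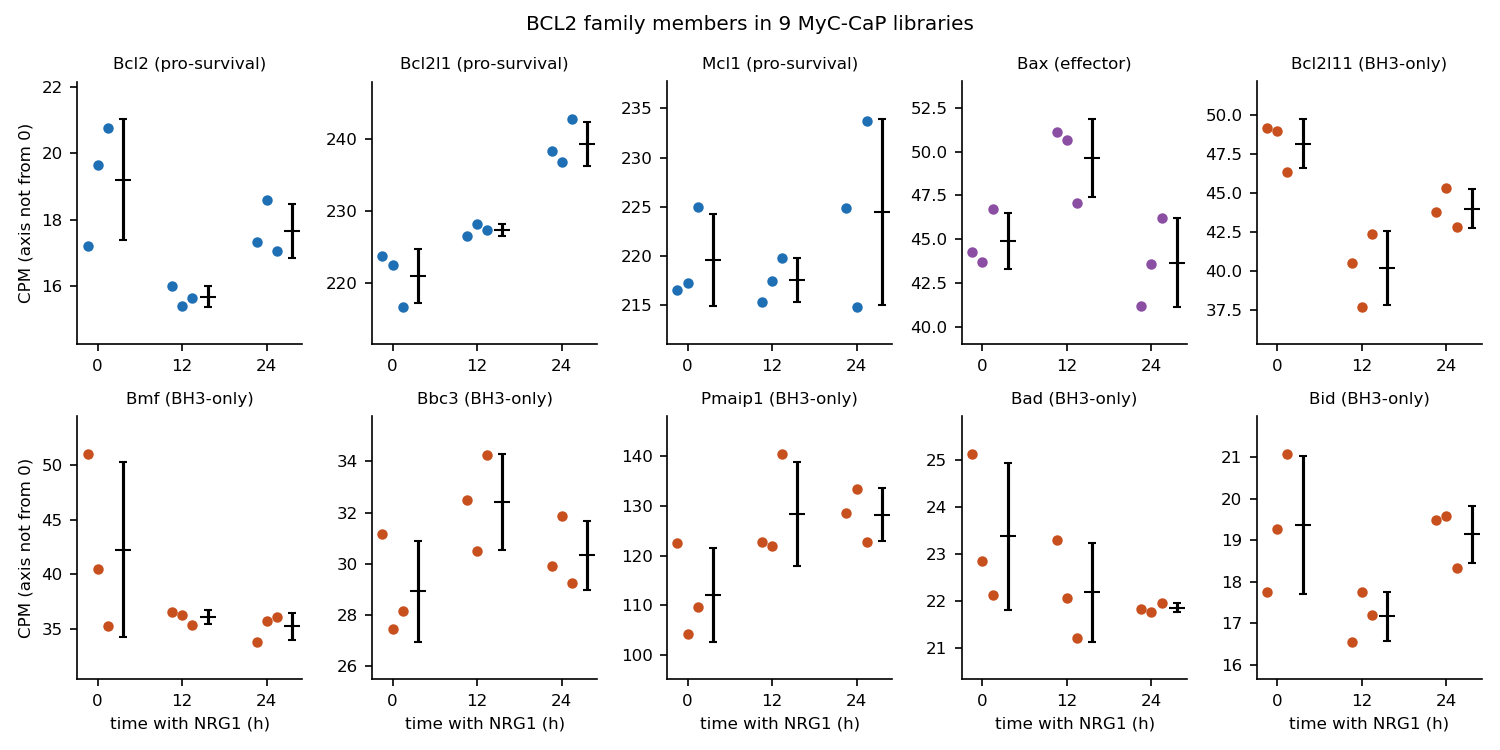
CPM of the 10 members (y axes, each with its own scale and not starting at 0) in the 3 libraries of each time point (x axis, hours with NRG1), with the mean and SD beside the points. Blue marks pro-survival genes, purple the effector Bax and orange BH3-only genes. The 3 values of Bcl2l11 at 12 h, 37.7 to 42.4 CPM, lie below all 0 h values, and 1 value of Bmf at 0 h, 51.1 CPM, stands above the other 8.

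Bcl2, which encodes the founding pro-survival protein (ENSMUSG00000057329.7, chr1:106538178-106714274), fell at 12 h. It was at 17.2, 19.6 and 20.8 CPM at 0 h, at 16.0, 15.4 and 15.7 CPM at 12 h and at 17.3, 18.6 and 17.1 CPM at 24 h. All 3 libraries of 12 h were below all of 0 h, and those of 24 h overlapped those of 0 h. The log2 fold change was -0.30 ± 0.07 (SE, 95% interval -0.45 to -0.14, edgeR adjusted p = 0.00777) at 12 h, which is 18.5% lower, and -0.13 (interval -0.28 to 0.03, adjusted p = 0.271) at 24 h. Without replicate 3 of 0 h, its highest library, the change at 12 h was -0.23 and no longer passed (adjusted p = 0.0629, range over 15 alternative fits 0.0025 to 0.0629).

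Bcl2l1 encodes BCL-XL, which binds BAX, BAK and most BH3-only proteins (ENSMUSG00000007659.18, chr2:152780668-152831728). Its level was 224, 222 and 217 CPM at 0 h, 227, 228 and 227 CPM at 12 h and 238, 237 and 243 CPM at 24 h. The groups did not overlap in any comparison, each later time point lying above the earlier. Replicates were tight enough that a change of 8.31% passed at 24 h (log2 fold change 0.12 ± 0.03, SE, interval 0.05 to 0.18, edgeR adjusted p = 0.0228), while the difference at 12 h was 0.04 (interval -0.03 to 0.11, adjusted p = 0.398). The call at 24 h was lost without replicate 3 of 0 h (0.11), replicate 1 of 24 h (0.12) or replicate 3 of 24 h (0.11), with adjusted p between 0.00853 and 0.0935 over 15 alternative fits.

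Mcl1 encodes a short-lived pro-survival protein that NOXA binds (ENSMUSG00000038612.16, chr3:95658788-95663176), and no difference passed. Its level was 217, 217 and 225 CPM at 0 h, 215, 217 and 220 CPM at 12 h and 225, 215 and 234 CPM at 24 h. The 3 groups overlapped throughout. The 95% intervals of the log2 fold change ran from -0.09 to 0.07 at 12 h (adjusted p = 0.829) and from -0.05 to 0.11 at 24 h (adjusted p = 0.623), which bounds any difference in Mcl1 mRNA more closely than in the other members apart from Bcl2l1.

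Bax encodes the effector that, once activated, forms pores in the outer membrane (ENSMUSG00000003873.11, chr7:45461697-45466898). It was at 44.3, 43.7 and 46.7 CPM at 0 h, at 51.1, 50.7 and 47.1 CPM at 12 h and at 41.2, 43.6 and 46.2 CPM at 24 h. The 12 h libraries were above all libraries of the other time points, replicate 3 by the least. Bax passed the test over the 3 time points (adjusted p = 0.0309) but no pairwise test, with log2 fold changes of 0.15 at 12 h (interval 0.03 to 0.26, adjusted p = 0.0535), -0.04 at 24 h (adjusted p = 0.684) and -0.18 between 12 and 24 h (interval -0.30 to -0.07, adjusted p = 0.0561). Without replicate 3 of 12 h, both differences that involve 12 h passed, at 0.19 and -0.23, and DESeq2 called the fall from 12 to 24 h. Of the exonic bases of Bax, 12.2% are shared with the predicted gene Gm45808 on the same strand, and counts there could be split or lost.

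Bcl2l11, which encodes the BH3-only protein BIM, a direct activator of BAX that binds all pro-survival members, showed the smallest p of the 10 members (ENSMUSG00000027381.16, chr2:128126038-128162547). It was at 49.2, 48.9 and 46.3 CPM at 0 h, at 40.5, 37.7 and 42.4 CPM at 12 h and at 43.8, 45.3 and 42.8 CPM at 24 h. The 12 h libraries were the lowest, those of 24 h lay between, and no groups overlapped. It fell by 16.5% at 12 h (log2 fold change -0.26 ± 0.05, SE, interval -0.37 to -0.15, edgeR adjusted p = 0.00133) and passed in each of 15 alternative fits, including the 9 that left out 1 library, with values from -0.29 to -0.22 and adjusted p from 3.74e-05 to 0.00844. At 24 h the difference was -0.13 (interval -0.24 to -0.02, adjusted p = 0.0888), and the difference between 24 h and 12 h was 0.13 (adjusted p = 0.164).

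Pmaip1 encodes NOXA, a BH3-only protein that binds chiefly MCL1 (ENSMUSG00000024521.8), and it was the 1 member that passed at both times. It was at 123, 104 and 110 CPM at 0 h, at 123, 122 and 141 CPM at 12 h and at 129, 133 and 123 CPM at 24 h. Replicate 1 of 0 h lay between the lowest and the middle library of 12 h, so the groups overlapped, and at 24 h the lowest library was just above it. It rose by 14.7% at 12 h (log2 fold change 0.20 ± 0.06, SE, interval 0.07 to 0.32, edgeR adjusted p = 0.0235) and was 14.6% above 0 h at 24 h (0.20 ± 0.06, interval 0.07 to 0.32, adjusted p = 0.0322). Between 12 and 24 h the difference was -0.0013, with an interval from -0.13 to 0.13. The call at 12 h was lost without replicate 2 of 0 h (0.15), replicate 3 of 0 h (0.19) or replicate 3 of 12 h (0.14), with adjusted p between 0.000121 and 0.104 over 15 alternative fits. At 24 h it was lost without replicate 2 of 0 h (0.15), replicate 3 of 0 h (0.19), replicate 1 of 24 h (0.20) or replicate 2 of 24 h (0.17), with adjusted p between 0.000178 and 0.140.

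The other 4 BH3-only genes passed no pairwise test and not the test over the 3 time points. Bmf, whose protein is tethered to the actomyosin cytoskeleton and is known for its part in death after loss of attachment (ENSMUSG00000040093.16), was at 51.1, 40.5 and 35.2 CPM at 0 h, at 36.5, 36.3 and 35.3 CPM at 12 h and at 33.8, 35.7 and 36.1 CPM at 24 h. The SD was 8.07 CPM at 0 h and 0.622 CPM at 12 h, with replicate 1 high and replicate 3 within the range of the later groups. Its log2 fold changes were -0.22 (interval -0.42 to -0.03, adjusted p = 0.0814) at 12 h and -0.26 (interval -0.45 to -0.07, adjusted p = 0.0601) at 24 h, and over 15 alternative fits the 24 h value ranged from -0.37 to -0.11 and passed in 5, with adjusted p between 0.00019 and 0.291. Without replicate 1 of 0 h the 12 h value was -0.07.

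Bbc3 encodes PUMA, a p53 target that binds all pro-survival members (ENSMUSG00000002083.13). It was at 31.2, 27.5 and 28.2 CPM at 0 h, at 32.5, 30.5 and 34.3 CPM at 12 h and at 29.9, 31.9 and 29.2 CPM at 24 h. All groups overlapped, and the log2 fold changes were 0.17 at 12 h (interval 0.04 to 0.30, adjusted p = 0.0588) and 0.07 at 24 h (adjusted p = 0.496).

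Bad encodes a protein held inactive by 14-3-3 proteins once AKT phosphorylates it (ENSMUSG00000024959.14), and Bid encodes the link that caspase 8 cleaves between death receptors and mitochondria (ENSMUSG00000004446.12). Bad was at 25.1, 22.9 and 22.1 CPM at 0 h, at 23.3, 22.1 and 21.2 CPM at 12 h and at 21.8, 21.8 and 21.96 CPM at 24 h. The 3 values of 24 h lay just under those of 0 h, with a log2 fold change of -0.09 (adjusted p = 0.345), after -0.07 (adjusted p = 0.451) at 12 h. Bid was at 17.8, 19.3 and 21.1 CPM at 0 h, at 16.6, 17.8 and 17.2 CPM at 12 h and at 19.5, 19.6 and 18.3 CPM at 24 h. Its highest 12 h library was level with the lowest of 0 h, and the log2 fold changes were -0.18 (interval -0.33 to -0.03, adjusted p = 0.0788) and -0.02 (adjusted p = 0.877). Exons overlap a gene on the opposite strand for 20.5% of the bases of Bad (Gpr137) and 17.7% of those of Bid (Bcl2l13), and whether counting used strand was not stated.

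**Figure D2:**
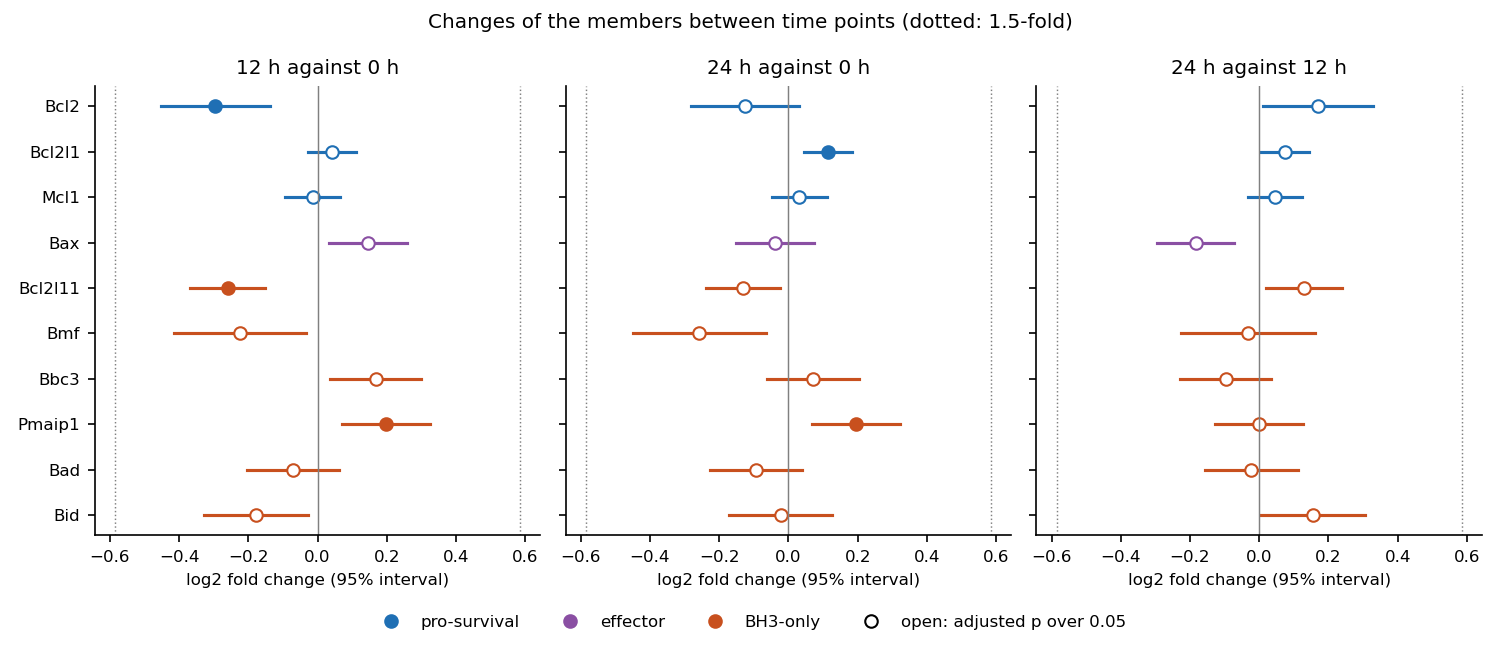
Log2 fold changes of the 10 members (points) with 95% intervals (lines) for the 3 pairs of time points, from the fit over all genes. Filled points had an adjusted p of at most 0.05, dotted lines mark a 1.5-fold change, and colors give the role as named in the key. All intervals lie inside the dotted lines, and the largest sizes are -0.30 for Bcl2 and -0.26 for Bcl2l11 at 12 h.

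From 12 to 24 h no member passed by edgeR (5 had an unadjusted p under 0.05), whereas DESeq2 called 1 of 10, Bax. Over all genes 5.03% passed, 1.97% higher and 3.06% lower at 24 h, and 0.29% also reached 1.5-fold. Libraries did not overlap for 4 of 10 members at 12 h against 0 h (Bcl2, Bcl2l1, Bax and Bcl2l11), for 4 at 24 h against 0 h (Bcl2l1, Bcl2l11, Pmaip1 and Bad) and for 5 at 24 h against 12 h (Bcl2, Bcl2l1, Bax, Bcl2l11 and Bid). The shares of all genes without overlap were 38.4%, 35.5% and 25%.

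To compare pro-survival with pro-death members, the mean log2 CPM per kb of the 7 pro-death genes was subtracted from that of the 3 pro-survival genes in each library. Each gene counted equally in its mean, so Bcl2, the lowest in level, weighed as much as Mcl1. The difference was 0.498, 0.673 and 0.703 at 0 h, 0.566, 0.585 and 0.555 at 12 h and 0.682, 0.639 and 0.694 at 24 h. Replicate 1 of 0 h was the lowest of all 9 libraries and the rest of its group overlapped with 24 h, and the mean was 0.625 ± 0.111 (SD, n = 3) at 0 h. The means of 0.569 ± 0.0153 at 12 h and 0.672 ± 0.0289 at 24 h lay within 1 SD of that at 0 h. That SD includes the low replicate 1, and the other libraries of 0 h, at 0.673 and 0.703, lay above all 3 of 12 h. The 3 libraries of 12 h were below all 3 of 24 h, a difference that was not tested. On the summed scale, pro-survival genes held 50.6% ± 1.35, 49.1% ± 0.588 and 51.0% ± 1.17 (SD, n = 3) of the CPM per kb of the 10 members. Their summed CPM per kb averaged 114.5, 114.9 and 119.8 at 0, 12 and 24 h. That of the pro-death genes averaged 111.8, 119.1 and 115.1. Mcl1 contributed 27.8%, Bcl2l1 21.6%, Pmaip1 19.4% and Bax 12.6% of the total on average over the 9 libraries, and Bcl2 0.827%.

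Ratios of CPM per kb were then formed for 4 pairs of members. Bcl2l1 over Bcl2l11 was 7.97, 7.96 and 8.19 at 0 h, 9.79, 10.6 and 9.39 at 12 h and 9.53, 9.15 and 9.93 at 24 h, every later library being above those of 0 h. Mcl1 over Pmaip1, the pair in which NOXA binds MCL1, was on average 1.57 before NRG1 (SD 0.139, n = 3), 1.36 after 12 h (SD 0.0948) and 1.40 after 24 h (SD 0.117), with overlap between the groups. Bcl2 over Bcl2l11, which both fell at 12 h, was 0.351 ± 0.0430, 0.343 ± 0.0174 and 0.352 ± 0.00692. Bcl2l1 over Bax was 1.69 ± 0.0871, 1.58 ± 0.0737 and 1.89 ± 0.0943, the 24 h libraries being above all others. These ratios combine the levels already given and were not tested separately.

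**Figure D3:**
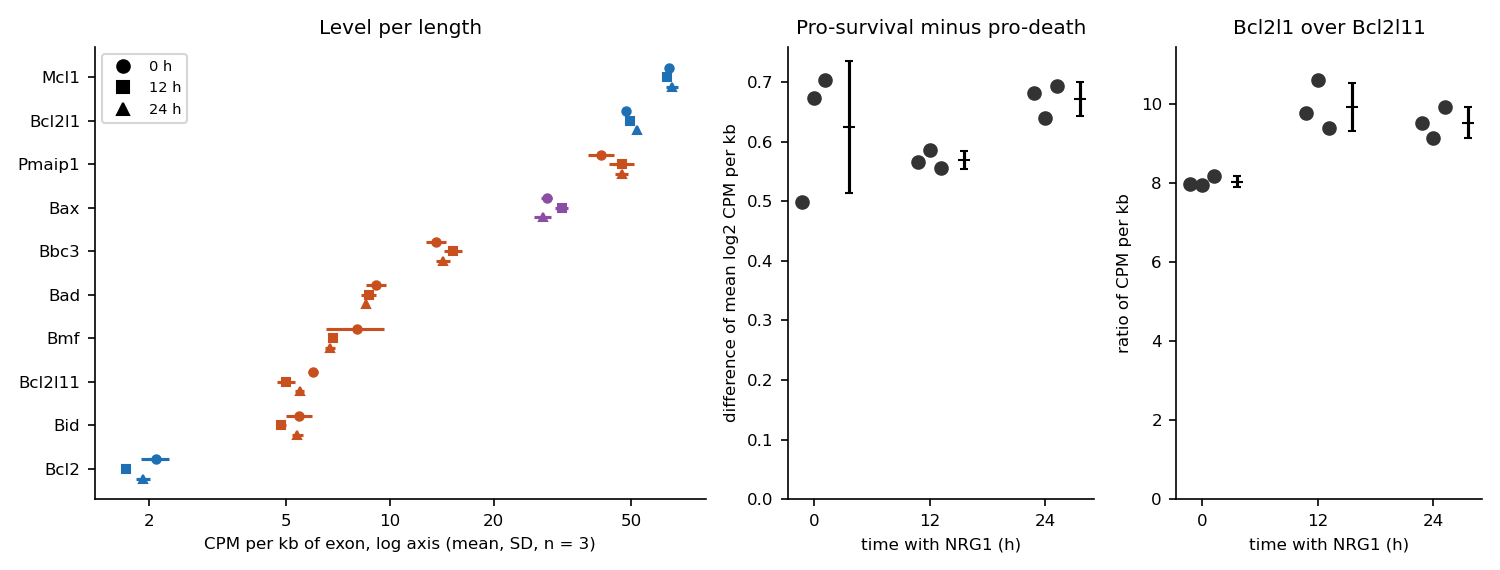
Left, CPM per kb of exon of the 10 members (log axis) as mean and SD of 3 libraries at 0 h (circles), 12 h (squares) and 24 h (triangles). Middle and right, the mean log2 CPM per kb of pro-survival minus pro-death members and the ratio of Bcl2l1 to Bcl2l11 in each library against hours with NRG1, with mean and SD, from 0. The means span 1.71 (Bcl2 at 12 h) to 65.7 CPM per kb (Mcl1 at 24 h), in the middle panel the 0 h libraries overlap those of both later times while those of 12 h lie below those of 24 h, and in the right panel all later libraries are above 8.19.

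The other genes of the pathway were taken from 5 lists written from general knowledge. Over all genes tested, 25.5% passed at 12 h and 17.4% at 24 h. List counts near these shares are no more than the background. Of 15 further BCL2 family genes, 11 had a row and 7 were tested, and 2 rose at 12 h and none passed at 24 h, with median log2 fold changes of 0.045 and -0.013. Both were the mitophagy receptors Bnip3 and Bnip3l, which carry an atypical BH3 domain. Bnip3 was at 555, 525 and 491 CPM at 0 h, at 647, 627 and 665 CPM at 12 h and at 542, 570 and 539 CPM at 24 h, so that only the 12 h libraries stood apart. It rose by 0.30 on the log2 scale at 12 h (edgeR adjusted p = 8.07e-05) and fell by 0.23 from 12 to 24 h (adjusted p = 0.00526). Bnip3l rose by 0.10 (adjusted p = 0.0388) and fell by 0.14 (adjusted p = 0.0297). Of 15 alternative fits, the rise of Bnip3l passed in 6 and its fall in 10, and 7 of the 9 fits that left out a library lost the rise, all but those without replicate 1 of 0 h or replicate 2 of 24 h. The antisense gene Gm45507 overlaps 22.3% of the exonic bases of Bnip3.

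Of the 17 genes of the apoptosome and the steps after it, 15 were tested. At 12 h 3 rose, Cycs and Birc5 among them, and 1 fell (Birc2), with a median of 0.028, and at 24 h 4 rose, among them Cycs, Birc5 and Casp9, and Birc2 fell, with a median of 0.046. Birc5, which encodes survivin, a caspase-binding protein that also serves in mitosis, was at 28.2 to 30.9 CPM at 0 h, 41.7 to 43.5 CPM at 12 h and 41.2 to 47.0 CPM at 24 h. It rose by 0.50 at 12 h and by 0.59 ± 0.06 (SE, edgeR adjusted p = 2.83e-06) at 24 h on the log2 scale, and was the 1 gene of all 5 lists both to pass and to reach 1.5-fold, the latter narrowly: over 15 alternative fits the 24 h value ranged from 0.55 to 0.65. Birc2, a ubiquitin ligase that restrains death receptor signaling, fell by 0.26 (adjusted p = 0.00141) and 0.29 (adjusted p = 0.000617). Larger sizes that did not pass were those of Birc3 at 24 h (log2 fold change 1.33, adjusted p = 0.0579, mean over the libraries 0.306 CPM) and, in the list of further family genes, Bik at 12 h (-1.12, adjusted p = 0.210, mean 0.206 CPM), both named after their values were seen. Cycs, cytochrome c, has copies elsewhere in the genome, and its counts are uncertain for that reason.

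In the death receptor arm 8 of 9 genes were tested. At 12 h 2 rose (Casp8 and Casp2) and at 24 h 3 rose (Tnfrsf10b, Fadd and Casp8), with medians of 0.035 and 0.060, and none fell. Casp2 was put in this list by choice, and its part in death receptor signaling was not examined. Casp8, the initiator caspase of this arm, rose by 0.24 at both times (adjusted p = 0.0194 and 0.024). This call was lost at 12 h without replicate 2 of 0 h or replicate 1 or 2 of 12 h, and at 24 h without replicate 1 or 2 of 0 h or replicate 1 or 3 of 24 h, with values from 0.19 to 0.30 and 0.19 to 0.29 over 15 alternative fits. Tnfrsf10b, the mouse TRAIL receptor, was at 51.8 to 52.8 CPM at 0 h and 57.5 to 62.2 CPM at 24 h (log2 fold change 0.21, adjusted p = 0.00422), with 0.07 at 12 h (adjusted p = 0.333).

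All 11 genes for the turnover or sequestration of MCL1, BIM, NOXA or BAD protein were tested, with medians of -0.035 at 12 h and -0.027 at 24 h. Fbxw7, the substrate receptor of a ubiquitin ligase for MCL1, was at 66.7 to 71.9 CPM at 0 h, 51.5 to 59.8 CPM at 12 h and 55.4 to 56.7 CPM at 24 h, and fell by 0.33 (adjusted p = 0.000249) and 0.30 (adjusted p = 0.000727). Ywhaz, a 14-3-3 protein that binds phosphorylated BAD, rose by 0.20 at 12 h (adjusted p = 0.000703) and differed by 0.08 at 24 h (adjusted p = 0.166). No other gene of this list passed against 0 h.

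Of 17 transcription factors known to act on members, 15 were tested. At 12 h 5 rose (E2f1, Atf4, Jun, Hif1a and Runx1) and 2 fell (Foxo4 and Stat5a), and at 24 h 4 rose (E2f1, Atf4, Ddit3 and Runx1) and the same 2 fell, with medians of 0.098 and 0.059. The shares passing over all genes were 25.5% and 17.4%, and the list was not tested as a set. Atf4, the stress response factor that can act on Pmaip1, was at 308 to 347 CPM at 0 h, 423 to 489 CPM at 12 h and 434 to 446 CPM at 24 h, and rose by 0.45 (adjusted p = 1.11e-05) and 0.43 (adjusted p = 2.27e-05). E2f1, a cell cycle factor with several BH3-only targets, was at 16.5 to 18.5 CPM, 23.8 to 25.5 CPM and 21 to 24.96 CPM in the same order, and rose by 0.49 (adjusted p = 0.000115) and 0.41 (adjusted p = 0.000684).

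**Figure D4:**
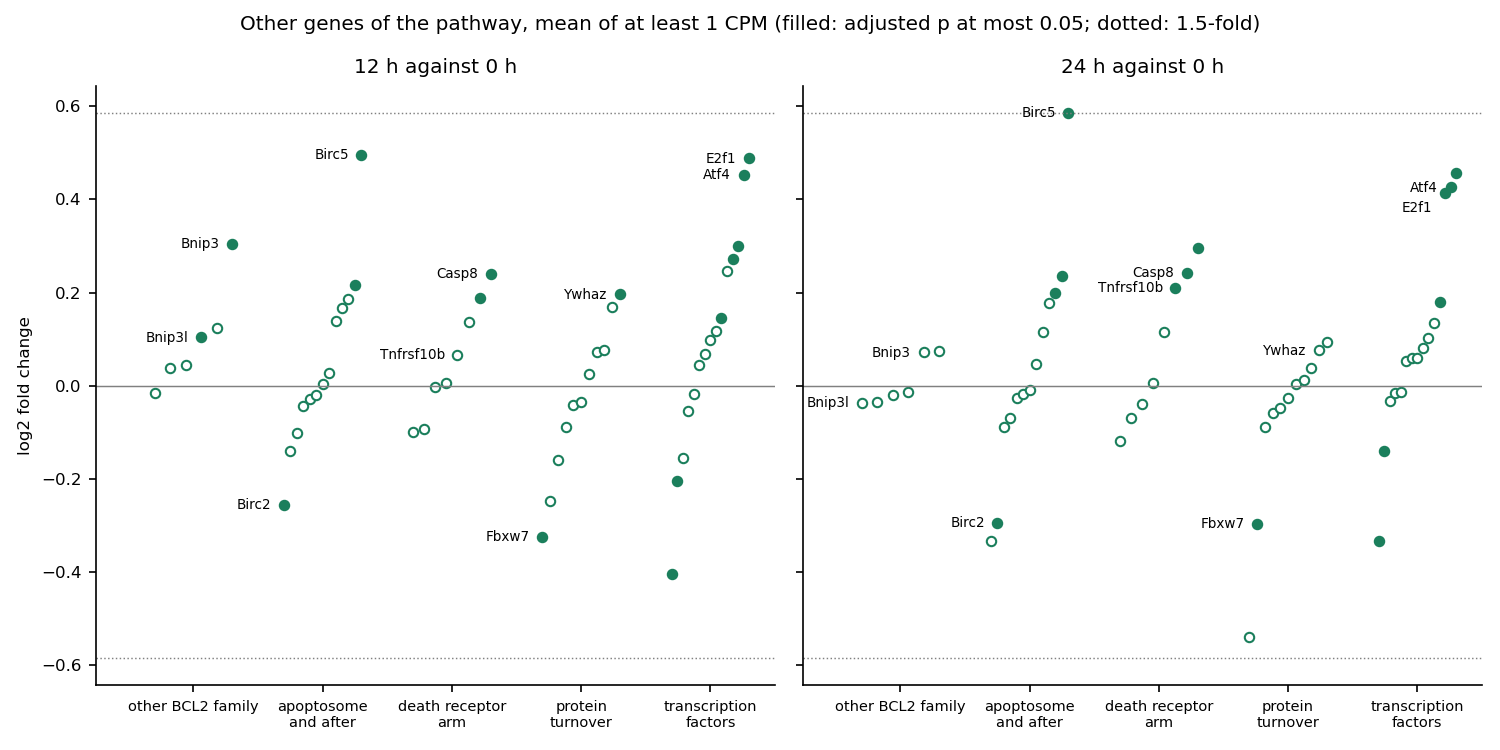
Log2 fold changes at 12 h (left) and 24 h (right) against 0 h of tested genes of 5 lists with a mean of at least 1 CPM, ordered by value within each list. Filled points had an adjusted p of at most 0.05, dotted lines mark 1.5-fold, and labels name genes described in the text. Bik and Birc3, under 1 CPM, are not shown. Birc5 reaches the dotted line at 24 h, and Bnip3 is at 0.30 at 12 h and 0.07 at 24 h.

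The genes whose pair of log2 fold changes at 12 and 24 h lay closest to that of 3 members were found among 8321 genes with a mean of at least 10 CPM. For Bcl2l11 (-0.26 and -0.13) these were Macrod1, Angptl4 and Herc1, at distances of 0.00163 to 0.00362. For Bcl2 (-0.30 and -0.13) they were Trrap, Ipo13 and Cyp27a1, at 0.00888 to 0.0116, and for Pmaip1 (0.20 and 0.20) Lhfp, Unc5b and Plekhm3, at 0.00313 to 0.00646. Each distance is over 3 time points with 3 libraries each.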

How the data were processed

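Per the labels, mRNA libraries from 9 MyC-CaP samples were read from both ends at 150 bp. Trimming with Cutadapt, alignment to GRCm38 with STAR and counting by gene with featureCounts (GENCODE annotation) were done by the authors, whose deposited table holds raw counts without normalization. Strand use in counting is not given in the sources used here.

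The labelled time gave the groups, and depths were 28467089 to 39239760 counts. Genes were filtered with filterByExpr (11373 of 15552 kept), scaled by TMM and fitted over all 9 libraries in edgeR 4.0.16 (R 4.3.3), with glmQLFit and glmQLFTest. The fit was tested on data simulated with changes of about 1.5-fold or more. That test does not cover changes as small as those of the members. Intervals are 95% and use the moderated degrees of freedom. CPM are after TMM, as mean ± SD over 3 libraries, with a prior count of 2 on the log2 scale. Exonic lengths came from GENCODE M21, an earlier release than the authors used. Alternatives were DESeq2 1.42.0 (size factors, test), limma 3.58.1 voom, total counts, no filter, glmTreat, a replicate block and leaving out each library. The 15 alternative fits given for single genes leave out glmTreat, which asks for a change beyond 1.5-fold.

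The members and lists were chosen with earlier results of these data known. All members are named. From each list, genes passing with at least 1.5-fold and up to 2 more with the smallest p over the 3 time points are named, and genes of like pattern are the 3 nearest for the 3 members with the smallest such p. Krt8, Krt18, Epcam, Cdh1 and Pdgfra are named as markers. Some items that these rules or lists hold are not reported here.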

Additional observations from a re-analysis of the deposited data

Results flagged for a closer look

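The log2 fold change of 24 h against 12 h passed the edgeR test for 2 genes of the lists whose effect against 0 h therefore differed between the time points. Bnip3 was 0.30 above 0 h at 12 h and 0.07 at 24 h, a difference between the times of -0.23, with all 3 libraries of 24 h below all of 12 h. Bnip3l was 0.10 above 0 h at 12 h and -0.04 at 24 h, a difference of -0.14, again without overlap. No member met any of the conditions for a closer look, and groups of 3 libraries are too small to look for a library far from the rest.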

How the results depend on the processing

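Of 480 log2 fold changes of members under alternative settings, 434 kept their direction and side of the threshold, 16 of the 80 that belonged to passing values lost the call, 17 that had not passed gained one (Bax, Bmf, Bbc3 or Bid) and 13 changed sign, none of them of a value that passed. The count of passing members at 12 h (3) was 6 without the filter on low counts and ranged from 2 to 5 when 1 library was left out. At 24 h (2) it ranged from 0 to 3 in the same way. Between 12 and 24 h (0) it was 1 by DESeq2, 1 without the filter and 0 to 1 with a library left out. Over the 3 time points (5) it ranged from 2 to 6. With glmTreat, which asks for a change beyond 1.5-fold, no member passed at 12 h (0) or 24 h (0), and 4 and 6 of all genes did. The cause was not tested. Of 352 passing values of list genes and Krt8 under the same settings, 303 kept their side of the threshold, 49 lost a call and none changed sign. Apart from losses under glmTreat, the lost calls were those of Bnip3l, Casp8 and Krt8. Over all genes, the count passing between 12 and 24 h (572) was 950 without the filter and 214 to 879 with a library left out. The 480, 80 and 352 values include glmTreat, which the 15 alternative fits given for single genes do not.

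Sign changes were in values near 0. Pmaip1 at 24 h against 12 h was 0.000509 with the size factors of DESeq2, 0.000508 with its test, 0.0010 with limma voom and 0.013 with total counts, and -0.033 to 0.062 with a library left out. In leave-one-out fits Mcl1 at 12 h ranged from -0.023 to 0.012, Bax at 24 h from -0.079 to 0.0028, Bad at 24 h against 12 h from -0.0595 to 0.014 and Bid at 24 h from -0.077 to 0.050. 

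Libraries of the same replicate number deviated together weakly if at all, which does not settle whether the numbers pair them. The 9 same-number correlations of deviations ran from -0.074 to 0.13, 1 of them over 0.1, and 5 of 9 libraries were closest to their own number. With the replicate block, 3 members passed at 12 h, 2 at 24 h, 0 between them and 4 over the 3 time points, and Pmaip1 at 24 h against 12 h was 8.28e-05. The pro-survival minus pro-death level kept within 1 SD under all alternatives run. The SD at 0 h (0.111) includes the low replicate 1 (0.498, against 0.673 and 0.703), so this does not show a stable level.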

Other observations

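Several genes of the pathway were close to absent from these cells. Endog, a mitochondrial nuclease, had 2 counts in 1 library. Fas, a death receptor, had 0 to 6 counts in a library (mean 0.0654 CPM), and the effector-like gene Bok had 0 to 5 (mean 0.0894 CPM). A count of 3 corresponds to 0.0765 to 0.105 CPM at these depths, so these genes were at or near the limit of detection, and their changes were not tested.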
